A study of Bos taurus with 71 samples.

Results

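The rumen and the ileum of calves were compared at D7, with 5 rumen samples against 5 ileum samples out of 71 samples in the series. The samples were chosen by their labels for region and age. Calves were Holstein bull calves killed at D7, at a time when they were fed milk without starter feed, and no group received a treatment. Each tissue sample is 1 animal, and the same animal number, 1 to 5, was taken as the same calf in both regions. The ileum samples were whole segments of the gut wall taken close to the ileo-cecal fold. How the rumen was sampled is not given in the sources used here. Mid-jejunum samples with the same animal numbers are given beside some values. The same comparison at D21, in 5 other calves, was used to see which differences held in older animals. According to the study, calves at D21 also had starter feed, so age and feed cannot be told apart in that comparison. Files labelled distal jejunum were not used, because all 17 hold the values of the ileum file of the same age and animal.

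The rumen is lined by a stratified squamous epithelium, in which keratinocytes are tied together by desmosomes and anchored to the lamina propria by hemidesmosomes. In the newborn calf it is not yet the fermentation chamber of the adult, and milk is led past it into the abomasum. The ileum is lined by a single layer of absorptive and secretory cells, and in calves it holds a long continuous Peyer's patch, an organ of B cell follicles in which B cells divide and diversify their receptors.

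Expression is given in CPM, the reads of a gene scaled to 1000000 mapped reads of its library, which were deposited as whole numbers, so that a listed 0 means a CPM below 0.5. Fold changes are on log2(CPM + 1), a scale on which genes with low CPM differ by less than their true ratio. They are given as rumen over ileum, so that a positive value means a higher level in the rumen. A gene was called at a fold change above 2 and an FDR below 0.05 (limma, Benjamini-Hochberg over 14244 genes tested). CPM does not allow levels of different genes to be ranked, because no gene length enters it. No fold change is given for a gene listed at 0 in all samples of a region. In bulk tissue, fewer cells of a type and less RNA per cell cannot be told apart.

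Most squamous genes (13 of 18) were called higher in the samples labelled rumen, and most enterocyte identifiers (14 of 19) in those labelled ileum. Of the squamous genes, 2 were called the other way. Only 9 of the 19 enterocyte identifiers passed the filter on low values in the rumen samples. These counts therefore do not test the labels. Keratin genes were not analysed here. Across tested genes, log2 values of 2 rumen samples correlated at 0.940 to 0.978, those of 2 ileum samples at 0.951 to 0.985, and those of a rumen and an ileum sample at 0.599 to 0.653. The number of genes with a listed CPM of at least 1 was 13990 to 14489 in the rumen and 14573 to 14937 in the ileum. The 20 genes with the highest CPM took 13.8% to 17.8% of the summed CPM of a rumen sample and 7.68% to 10.5% of that of an ileum sample. A value of 1 CPM is the smallest step of the files, and the files do not give the number of reads behind it. Library preparation followed the same protocol in both regions, according to the labels.

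Of the 14244 genes, 2041 (14.3%) were higher in the rumen and 3587 (25.2%) were higher in the ileum. Values of the 5 rumen and 5 ileum samples did not overlap for 53.2% of genes. The median log2 fold change over all tested genes was -0.29. With median-ratio scaling of the samples that median shifted by 0.25, and the calls became 2592 higher in the rumen and 2915 higher in the ileum. Listed CPM was 0 in all rumen samples for 436 tested genes and 0 in all ileum samples for 278.

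Symbols were at hand for 1280 of the tested genes, mostly with initials A to I. That set comes from a sheet of immune-related genes that the study detected in the small intestine, so immune genes are over-represented in it and genes particular to the rumen are under-represented. Among the 1280, 171 (13.4%) were higher in the rumen and 419 (32.7%) were higher in the ileum, and the median log2 fold change was -0.41. Outside it the shares were 14.4% and 24.4%. Gene groups below were drawn from this set, with 307 symbols in 17 groups, and the counts per group are read against these percentages. Every member was tested, but some passed the filter on low values only in the ileum samples. Such genes entered through the region where they are high, so the number that passed in the rumen is given beside each count it touches.

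**Figure D1:**
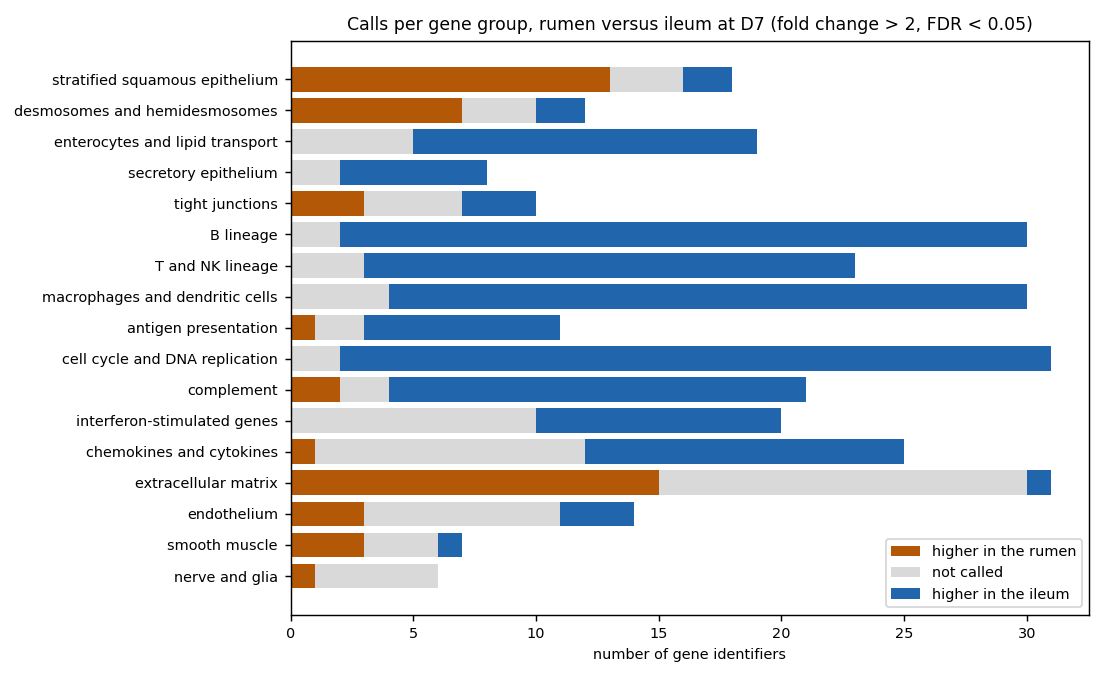
Number of gene identifiers in each of 17 gene groups that were called higher in the rumen (brown), not called (grey) or called higher in the ileum (blue) at D7. The stratified squamous, desmosome and extracellular matrix groups carried 13, 7 and 15 calls in the rumen direction, and the B lineage, T and NK lineage, macrophage and cell cycle groups carried none.

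Genes of stratified squamous epithelium were mostly higher in the rumen. Of 18, 13 were higher in the rumen, 2 were higher in the ileum and 3 were not called, with a median log2 fold change of 2.70. Their summed CPM was 4532 to 7273 in the rumen and 357 to 556 in the ileum. GJA1, which is not confined to squamous cells, and AQP3 supplied a large part of the rumen sums. They were at 2200 and 739 CPM in rumen animal 1 and 1582 and 2243 CPM in rumen animal 5.

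MPZL2, an adhesion protein of epithelial junctions (ENSBTAG00000033510), had the largest difference in the rumen direction among genes with a symbol. Its CPM in animals 1 to 5 was 252, 275, 265, 350 and 391 in the rumen and 5, 3, 6, 4 and 5 in the ileum. The log2 fold change was 5.78 ± 0.17 (SE, n = 5 per region; FDR = 3.69e-11). The jejunum lay between the regions, at 42 to 52 CPM. AQP3, a water and glycerol channel of keratinocytes (ENSBTAG00000008493), read 739, 1270, 670, 927 and 2243 CPM in the rumen and 22, 26, 20, 31 and 30 CPM in the ileum. Animal 5 was the highest of the rumen samples, and every rumen sample exceeded every ileum sample (log2 fold change 5.32 ± 0.28, FDR = 5.97e-09). In the jejunum AQP3 was listed at 3 to 7 CPM.

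GJA1, the gap junction protein connexin 43 that couples neighbouring keratinocytes, muscle cells and fibroblasts, reached 2200, 1671, 1832, 2203 and 1582 CPM in the rumen against 56, 67, 97, 55 and 41 CPM in the ileum. Its spread within each region was small beside the log2 difference of 4.93 ± 0.20. ANXA1, a calcium-dependent membrane-binding protein of squamous cells and leukocytes, measured 760, 1044, 923, 1313 and 1581 CPM in the rumen and 48, 45, 50, 40 and 32 CPM in the ileum. Jejunum values of ANXA1, 29 to 48 CPM, overlapped those of the ileum. IL20RA, a receptor subunit for the epidermal cytokines of the IL-20 group, was listed at 60 to 116 CPM in the rumen and 2 to 4 CPM in the ileum (log2 fold change 4.47 ± 0.20).

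Among the members called higher in the rumen were also growth factor genes. HBEGF, an EGF receptor ligand, had a log2 fold change of 2.94 ± 0.25 and BTC, another ligand of that receptor, 1.99 ± 0.29. FGFR2 was at 72 to 131 CPM in the rumen and 28 to 35 CPM in the ileum. FGFR3 was at 54 to 214 CPM against 27 to 43 CPM, with animal 5 the highest. The cadherin CDH3 (45 to 73 CPM against 4 to 10 CPM) and the IL-1 receptor antagonist IL1RN (91 to 196 CPM against 6 to 26 CPM) did not overlap between regions either.

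The group was not uniform. IL22RA1, the receptor subunit through which epithelium responds to IL-22, was at 6, 7, 8, 9 and 25 CPM in the rumen and at 88, 54, 53, 51 and 43 CPM in the ileum (log2 fold change -2.43 ± 0.32, FDR = 2.32e-05). CARD14, a scaffold protein that activates NF-kappaB in keratinocytes, was at 2 to 8 CPM in the rumen and 28 to 46 CPM in the ileum (log2 fold change -3.00 ± 0.29). Both were higher still in the jejunum, at 116 to 192 CPM and 49 to 79 CPM. EPHA2, F3 and ALOX12 were not called, with log2 fold changes of 0.94, 0.97 and -0.01.

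**Figure D2:**
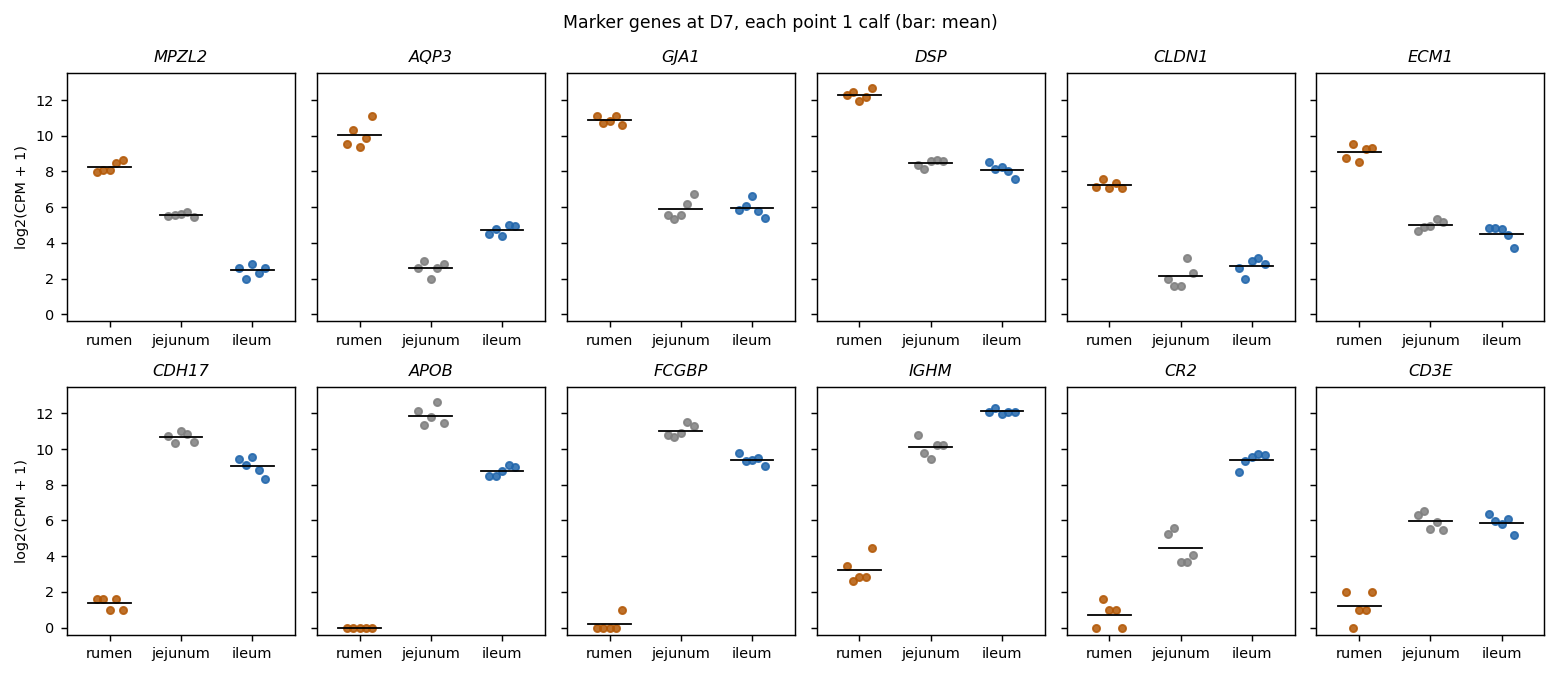
Log2(CPM + 1) of 12 genes in the rumen, jejunum and ileum at D7, with 1 point per calf in order of animal number and a bar at the mean of 5 calves. MPZL2, AQP3, GJA1, DSP, CLDN1 and ECM1 were higher in all 5 rumen samples than in any sample of the gut, and CDH17, APOB, FCGBP, IGHM, CR2 and CD3E were lower.

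Genes of desmosomes and hemidesmosomes split by gene. Of 12, 7 were higher in the rumen, 2 were higher in the ileum and 3 were not called, with a median log2 fold change of 1.27. DSP, the desmoplakin that links desmosomes to keratin filaments, was at 4990, 5506, 3895, 4559 and 6545 CPM in the rumen and 366, 283, 306, 256 and 192 CPM in the ileum (log2 fold change 4.19 ± 0.18, FDR = 9.56e-10). DSC2, a desmosomal cadherin, was at 1017, 1003, 746, 880 and 1438 CPM against 75, 47, 62, 52 and 39 CPM, a log2 fold change of 4.18 ± 0.19. Neither gene overlapped between regions.

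DSG2, the desmosomal cadherin of simple epithelia, went the other way. It was listed at 37, 49, 31, 41 and 46 CPM in the rumen and 303, 284, 257, 175 and 100 CPM in the ileum, a log2 fold change of -2.34 ± 0.27 (FDR = 6.75e-06). PKP2, a plakophilin, was called at -1.02 ± 0.29 although its values overlapped, and with median-ratio scaling, or without rumen animal 1, ileum animal 1 or ileum animal 3, the desmosome group had 1 gene higher in the ileum. DSC2 and DSG2, both cadherins of the desmosome, thus lay on opposite sides of 0.

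Of the genes for the basal side, COL7A1, ITGB4 and FERMT1 were higher in the rumen and ITGA6 was not called. COL7A1, the collagen of anchoring fibrils, was at 132, 219, 137, 213 and 377 CPM in the rumen and 22, 17, 13, 18 and 24 CPM in the ileum (log2 fold change 3.37 ± 0.26). ITGB4, the hemidesmosomal integrin subunit, was at 236 to 482 CPM against 84 to 179 CPM. FERMT1, a kindlin that activates integrins in epithelium, was at 56 to 121 CPM against 19 to 31 CPM. ITGA6, the partner of ITGB4, had a log2 fold change of 0.88 ± 0.25.

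The tight junction genes of the group divided evenly between the regions. OCLN, CLDN15 and the zonula occludens genes, which the study detected in the small intestine, were not among them. Of 10, of which 9 passed the filter in the rumen samples, 3 were higher in the rumen, 3 were higher in the ileum and 4 were not called, with a median log2 fold change of -0.00126 that became 0.26 with median-ratio scaling. Claudins set which ions pass between epithelial cells, and each epithelium uses its own combination.

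CLDN1, the claudin of epidermal barriers, was at 138, 191, 133, 165 and 135 CPM in the rumen and 5, 3, 7, 8 and 6 CPM in the ileum (log2 fold change 4.53 ± 0.21, FDR = 1.46e-09). CLDN4, a sealing claudin, was at 258, 394, 284, 407 and 399 CPM in the rumen and 116, 68, 73, 42 and 17 CPM in the ileum (log2 fold change 2.67 ± 0.39, FDR = 6.14e-05). The ileum spread of CLDN4 was wide, yet its highest value stayed under the lowest rumen value. CLDN5, best known from endothelium, was at 23, 42, 40, 35 and 43 CPM against 9, 13, 11, 12 and 14 CPM, a log2 fold change of 1.54 ± 0.19.

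CLDN2, a claudin that forms channels for cations and water in leaky epithelia, was listed at 0 in all 5 rumen samples and at 189, 182, 209, 191 and 174 CPM in the ileum. It was also at 0 in the rumen of all calves at D0, D21 and D42. CLDN3 was at 3, 7, 5, 8 and 3 CPM in the rumen and 138, 139, 124, 70 and 49 CPM in the ileum, a log2 fold change of -4.05 ± 0.33. CLDN7 was at 33, 60, 52, 78 and 98 CPM in the rumen and 270, 219, 235, 154 and 138 CPM in the ileum, a log2 fold change of -1.69 ± 0.27. No claudin of these 3 overlapped between regions.

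The other members of the group showed overlapping values. CLDN12, F11R (the adhesion molecule JAM-A), CGN (cingulin) and CXADR had log2 fold changes of -0.17 ± 0.16, 0.16 ± 0.20, 0.08 ± 0.15 and -0.08 ± 0.26, respectively. The claudins that were called had differences of 1.54 or more in size, while these 4 stayed within 0.17 of 0.

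**Figure D3:**
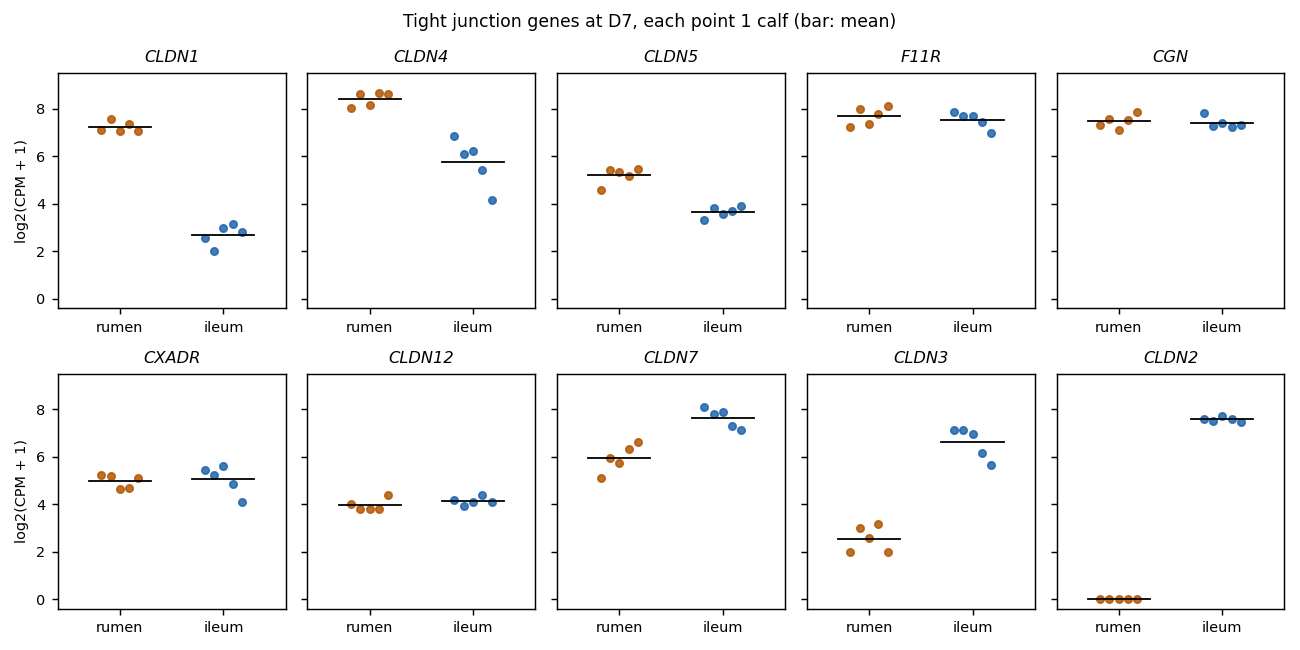
Log2(CPM + 1) of 10 tight junction genes in the rumen (brown) and ileum (blue) at D7, with 1 point per calf and a bar at the mean of 5 calves. CLDN1, CLDN4 and CLDN5 were higher in the rumen, CLDN7, CLDN3 and CLDN2 were higher in the ileum, and the other 4 overlapped.

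Absorptive and secretory genes of the gut epithelium were higher in the ileum or not called. Of 19 identifiers for enterocytes and lipid transport, 14 were higher in the ileum, 0 were higher in the rumen and 5 were not called (median log2 fold change -2.79). The filter was passed in the rumen samples by 9 of the 19. In this group 6 identifiers were listed at 0 in all rumen samples, and they enter the median at fitted values that are no bound. The summed CPM of the group was 507 to 807 in the rumen, 2709 to 3221 in the ileum and 20145 to 52345 in the jejunum.

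APOB, the structural protein of chylomicrons, was listed at 0 in all rumen samples and at 361, 353, 443, 556 and 505 CPM in the ileum, beside 2625 to 6469 CPM in the jejunum. CDHR2, a cadherin that spaces microvilli, was also listed at 0 in all rumen samples and was at 270, 201, 208, 208 and 188 CPM in the ileum. CDH17, the cadherin of intestinal epithelium, was at 2, 2, 1, 2 and 1 CPM in the rumen and 695, 548, 750, 449 and 320 CPM in the ileum (log2 fold change -7.70 ± 0.23, FDR = 3.8e-11). APOC3, AMN and CUBN, the first a lipoprotein component and the others the 2 parts of the vitamin B12 receptor, were listed at 0 in all rumen samples. Not all members were called. EZR, which links membranes to actin, had a log2 fold change of -0.36 ± 0.16 and was not called, and GPD1 stood at 0.01 ± 0.40. EPCAM, an adhesion molecule of simple epithelia, was at 83 to 133 CPM in the rumen and 277 to 623 CPM in the ileum.

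Of 8 genes for secretory cells, 6 were higher in the ileum and 2 were not called, and 3 passed the filter in the rumen samples. FCGBP, a mucus protein of goblet cells, had the largest difference of all genes with a symbol that were not listed at 0 throughout. It was at 0, 0, 0, 0 and 1 CPM in the rumen and 869, 650, 664, 721 and 536 CPM in the ileum (log2 fold change -9.21 ± 0.21, FDR = 3.22e-12). AGR2, which folds mucins in goblet cells, was at 0, 0, 0, 0 and 5 CPM in the rumen and 652, 361, 760, 185 and 106 CPM in the ileum, where animals 4 and 5 were low. GCG, the glucagon-like peptide gene of enteroendocrine cells, and IHH, a hedgehog ligand of gut epithelium, were listed at 0 in all rumen samples, against 35 to 64 CPM and 16 to 39 CPM in the ileum. DMBT1, a scavenger protein of mucosal surfaces, was at 23 to 45 CPM in 4 rumen samples and at 315 CPM in animal 5, against 511 to 2237 CPM in the ileum. GCNT3, an enzyme of mucin glycosylation, overlapped between regions (21 to 167 CPM in the ileum, 38 to 204 CPM in the rumen).

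B lineage genes were higher in the ileum. Of 30, 28 were higher in the ileum, 0 were higher in the rumen and 2 (BCL11A and CBFA2T3) were not called, with a median log2 fold change of -5.35 that includes 3 genes listed at 0 in all rumen samples. In the rumen samples 17 of the 30 passed the filter. Summed CPM of the group was 215 to 319 in the rumen and 11042 to 13153 in the ileum. IGHM alone supplied 4054 to 4965 CPM of the ileum sums and 5 to 21 CPM of the rumen sums.

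IGHM, the heavy chain of immunoglobulin M, was at 10, 5, 6, 6 and 21 CPM in the rumen and 4303, 4965, 4054, 4343 and 4365 CPM in the ileum (log2 fold change -8.88 ± 0.29, FDR = 7.39e-11). CR2, the complement receptor of follicular B cells and follicular dendritic cells, was at 0, 2, 1, 1 and 0 CPM in the rumen and 427, 651, 738, 839 and 816 CPM in the ileum. CD22, an inhibitory co-receptor of B cells, was listed at 0 in all rumen samples and at 190, 255, 171, 241 and 383 CPM in the ileum. IGLL1, annotated as an immunoglobulin light chain-like gene, was at 4 to 24 CPM in the rumen and 1952 to 2771 CPM in the ileum. Immunoglobulin genes belong to families of near-identical members, and reads may be split among them. The germinal centre factors BCL6 (29 to 68 CPM against 196 to 418 CPM) and GCSAM (listed at 0 against 25 to 44 CPM) were both higher in the ileum. In the jejunum CR2 was at 12 to 46 CPM and CD22 at 5 to 17 CPM, and jejunum values of 27 of the 30 genes lay below every ileum value.

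Of 23 T and NK lineage genes, 20 were higher in the ileum, 0 were higher in the rumen and 3 were not called (median log2 fold change -3.90, with 2 genes listed at 0 in all rumen samples). No more than 5 of the 23 passed the filter in the rumen samples. CD2, an adhesion receptor of T cells, was at 0, 0, 0, 0 and 1 CPM in the rumen and 48, 37, 41, 40 and 23 CPM in the ileum (log2 fold change -5.04 ± 0.25). IL2RA, the alpha chain of the IL-2 receptor, was at 0, 0, 0, 0 and 1 CPM against 26, 43, 55, 49 and 36 CPM. CCR9, the gut-homing chemokine receptor, was listed at 0 in all rumen samples and at 6 to 16 CPM in the ileum.

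Genes of the CD3 complex, which carries the signal of the T cell receptor, did not move together. CD3E was at 3, 0, 1, 1 and 3 CPM in the rumen and 80, 61, 55, 68 and 35 CPM in the ileum, a log2 fold change of -4.68 ± 0.36. CD3D was at 34, 16, 23, 20 and 38 CPM in the rumen and 45, 31, 44, 35 and 19 CPM in the ileum (-0.41 ± 0.27, FDR = 0.197). CD3G was at 15, 8, 9, 10 and 4 CPM against 17, 14, 17, 14 and 8 CPM (-0.61 ± 0.29, FDR = 0.079). CD247, the zeta chain of the same complex, was at 2 to 6 CPM against 35 to 57 CPM. Values of CD3D and CD3G thus overlapped between the regions, although CD3G was lower in the rumen for every animal number. Those of CD3E, CD247 and CD2 did not overlap and were lower in the rumen. At D21, CD3D was at 26 to 83 CPM in the rumen and 21 to 48 CPM in the ileum, while CD3E was at 1 to 5 CPM and 56 to 85 CPM. CD3D and CD3G were chosen for mention after their values were seen.

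Of 30 macrophage and dendritic cell genes, 26 were higher in the ileum and 4 were not called, with a median log2 fold change of -2.98, and 19 passed the filter in the rumen samples. TIMD4, a phosphatidylserine receptor of macrophages that engulf dying cells, was at 3, 2, 2, 2 and 2 CPM in the rumen and 189, 256, 225, 272 and 335 CPM in the ileum (log2 fold change -6.31 ± 0.16, FDR = 8.38e-12). LY86, a partner of a Toll-like receptor homologue on B cells and macrophages, was at 0 to 1 CPM against 43 to 71 CPM. Differences of CD14 and TLR4 were below the fold threshold. CD14, the lipopolysaccharide co-receptor, was at 65, 55, 62, 61 and 90 CPM in the rumen and 114, 144, 130, 103 and 94 CPM in the ileum (-0.81 ± 0.15, not called). TLR4, the lipopolysaccharide receptor, was at 24 to 41 CPM in the rumen and 27 to 37 CPM in the ileum (0.06 ± 0.16).

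ADAMDEC1, a secreted protease of the gut lamina propria, belonged to no group and was among the 10 genes with the largest differences. It was at 2, 0, 1, 0 and 0 CPM in the rumen and 956, 676, 822, 689 and 414 CPM in the ileum (log2 fold change -8.91 ± 0.33). At the other end, ACSF2, a mitochondrial acyl-CoA synthetase, was at 561, 883, 668, 1019 and 596 CPM in the rumen and 59, 48, 54, 58 and 65 CPM in the ileum (3.66 ± 0.16).

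Antigen presentation genes were higher in the ileum, with CTSL apart from the rest. Of 11, 8 were higher in the ileum, 1 was higher in the rumen and 2 were not called (median log2 fold change -2.49). CIITA, the activator of MHC class II genes, was at 1, 3, 6, 5 and 11 CPM in the rumen and 100, 136, 91, 118 and 154 CPM in the ileum. CD74, the invariant chain of MHC class II, was at 296, 319, 433, 391 and 324 CPM against 4573, 5144, 4156, 4837 and 3905 CPM (log2 fold change -3.68 ± 0.13). ERAP2, which trims peptides for MHC class I, was at 7 to 16 CPM against 187 to 275 CPM, and B2M, the light chain of MHC class I, was at 466 to 927 CPM against 1512 to 3892 CPM. CTSL, a lysosomal cathepsin, was at 131, 148, 112, 140 and 147 CPM in the rumen and 27, 22, 27, 27 and 29 CPM in the ileum (log2 fold change 2.32 ± 0.11, FDR = 2.75e-09). CTSS, the cathepsin of antigen-presenting cells, lay on the other side, at 26 to 60 CPM against 203 to 358 CPM.

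Cell cycle and DNA replication genes were higher in the ileum. Of 31, 29 were higher in the ileum and 2 (ANLN and CKAP2) were not called, with a median log2 fold change of -2.41. E2F8, a repressor of the E2F family, was at 5, 10, 8, 8 and 2 CPM in the rumen and 44, 57, 57, 68 and 80 CPM in the ileum (-3.14 ± 0.31). CLSPN, a checkpoint adaptor of replication forks, was at 17, 8, 19, 14 and 9 CPM against 96, 112, 112, 129 and 157 CPM (-3.14 ± 0.23). AURKB, a mitotic kinase, was at 17, 21, 26, 29 and 14 CPM against 135, 179, 164, 216 and 260 CPM (-3.11 ± 0.21). The jejunum stood with the rumen here, since its values lay below every ileum value for all 31 genes and above every rumen value for 1. Within the ileum, animal 1 was the lowest for 30 of the 31 genes and animal 5 the highest for 29. Animal 5 was the lowest of the rumen samples for 21 of them.

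Most complement genes were higher in the ileum, while the membrane-bound regulators CD55 and CD59 were higher in the rumen. Of 21, 17 were higher in the ileum, 2 were higher in the rumen and 2 were not called, with a median log2 fold change of -2.19 that includes 2 genes listed at 0 in all rumen samples. In the rumen samples 18 of the 21 passed the filter. C3, the component on which all activation routes meet, was at 24, 43, 26, 9 and 21 CPM in the rumen and 3087, 2487, 1985, 1394 and 609 CPM in the ileum (-6.18 ± 0.44, FDR = 9.12e-08). CFI, the protease that cleaves activated C3, was at 0, 2, 2, 1 and 1 CPM against 244, 193, 223, 173 and 105 CPM. C9, the pore-forming component, was listed at 0 in all rumen samples and at 177, 163, 123, 165 and 138 CPM in the ileum, and C5, also at 0 in the rumen, was at 30 to 57 CPM. CFB, the factor of the alternative pathway, was at 22 to 64 CPM against 361 to 782 CPM.

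CD55, which speeds the decay of C3 convertases on the cell surface, was at 38, 49, 43, 49 and 58 CPM in the rumen and 15, 16, 19, 15 and 11 CPM in the ileum (1.58 ± 0.16, FDR = 2.03e-06). CD59, which blocks the pore complex, was at 32, 21, 31, 29 and 27 CPM against 13, 14, 12, 11 and 13 CPM (1.08 ± 0.14, FDR = 2.32e-05). The call of CD59 was lost with a pseudocount of 5. CD46, another surface regulator, was at 194 to 234 CPM in the rumen and 308 to 384 CPM in the ileum (-0.76 ± 0.09, not called). In the jejunum CD55 was at 3 to 7 CPM and CD59 at 7 to 12 CPM.

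Interferon-stimulated genes were divided between those higher in the ileum and those not called. Of 20, 10 were higher in the ileum, 10 were not called and 0 were higher in the rumen (median log2 fold change -1.31), and 19 passed the filter in the rumen samples. IFITM2, a membrane protein that restricts virus entry, was at 1, 0, 1, 1 and 1 CPM in the rumen and 106, 101, 73, 90 and 90 CPM in the ileum (-5.73 ± 0.21). IFITM genes are near-identical copies of each other, so the split of their reads is uncertain. IFITM3 was at 29, 93, 107, 115 and 88 CPM in the rumen and 64, 80, 61, 70 and 50 CPM in the ileum (0.28 ± 0.31). GBP5, an interferon-induced GTPase, was at 1 to 4 CPM against 6 to 67 CPM, and IFI44L was at 2 to 11 CPM against 33 to 55 CPM.

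Rumen values of this group differed between calves. ISG15, an interferon-induced ubiquitin-like protein, was at 2, 82, 44, 42 and 82 CPM in the rumen and 34, 79, 36, 64 and 41 CPM in the ileum. IFI27 was at 5, 121, 73, 77 and 61 CPM in the rumen and 119, 187, 151, 128 and 89 CPM in the ileum. IFI6 was at 17, 140, 174, 119 and 56 CPM in the rumen and 45, 124, 48, 123 and 76 CPM in the ileum. Animal 1 was the lowest of the rumen samples for 16 of the 20 genes, and its summed CPM was 261 against 706 to 882 in the other rumen samples. In the ileum animal 1 was the lowest for 7 of the 20 genes, with a sum of 971 in a range of 948 to 1418. The 3 genes above were chosen for mention after their values were seen.

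Of 25 chemokine and cytokine genes, 13 were higher in the ileum, 1 was higher in the rumen and 11 were not called, with a median log2 fold change of -1.29 (-0.81 without rumen animal 5). In the rumen samples 19 of the 25 passed the filter. CXCL14, a chemokine that squamous epithelium makes constitutively, was the one higher in the rumen. It was at 207, 195, 206, 286 and 121 CPM in the rumen and 88, 56, 101, 53 and 38 CPM in the ileum (1.62 ± 0.27, FDR = 0.000168). The jejunum was at 111 to 148 CPM, above all ileum samples.

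The largest differences in the ileum direction were those of CXCL13, LTB, CCL25, TNFSF8, IL16 and CXCL6. CXCL13, which draws B cells into follicles, was listed at 0 in all rumen samples and at 96, 204, 147, 370 and 106 CPM in the ileum. LTB, a subunit of lymphotoxin that builds lymphoid organs, was at 1, 1, 2, 3 and 4 CPM against 98, 91, 140, 188 and 207 CPM (-5.53 ± 0.31). CCL25, the ligand of CCR9 made by gut epithelium, was at 1 CPM in every rumen sample and 119, 63, 84, 113 and 145 CPM in the ileum (-5.67 ± 0.20). TNFSF8, the CD30 ligand, was at 0 to 1 CPM against 37 to 77 CPM. IL16, which attracts CD4-bearing cells, was at 1 to 3 CPM against 71 to 86 CPM (-4.97 ± 0.21). CXCL6, a neutrophil attractant, was at 1 to 6 CPM against 25 to 116 CPM (-4.19 ± 0.44).

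Smaller differences in the same direction were found for CCL5 (-3.66 ± 0.31), CCL8 (-3.16 ± 0.37), IL27 (-1.89 ± 0.27), CXCL16 (-1.39 ± 0.25) and CCL21 (-1.29 ± 0.26). IL7, a survival factor for lymphocytes, was listed at 0 in all rumen samples and at 3 to 4 CPM in the ileum. CCL11, the eosinophil attractant eotaxin, was at 39, 16, 32, 22 and 3 CPM in the rumen and 88, 40, 58, 44 and 22 CPM in the ileum (-1.35 ± 0.55, FDR = 0.0434), and its values overlapped. That call was lost without any 1 of rumen animals 2, 4 and 5 or ileum animals 1 to 4, and it was -0.80 without rumen animal 5.

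The cytokines that were not called lay between -0.78 and 0.48 on the log2 scale. They were IL33 (-0.78 ± 0.22), CXCL12 (-0.74 ± 0.29), CXCL2 (-0.70 ± 0.13), IL34 (-0.63 ± 0.22), IL18 (-0.54 ± 0.17), CSF1 (-0.49 ± 0.19), CCL2 (-0.49 ± 0.33), IL23A (-0.45 ± 0.22), FLT3LG (-0.33 ± 0.13), CCL14 (0.47 ± 0.45) and CX3CL1 (0.48 ± 0.16). Several of these, such as the macrophage growth factors CSF1 and IL34 and the alarmins IL18 and IL33, are made by epithelium or stroma. So is CCL25, which was called higher in the ileum, and the source of these transcripts was not tested.

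**Figure D4:**
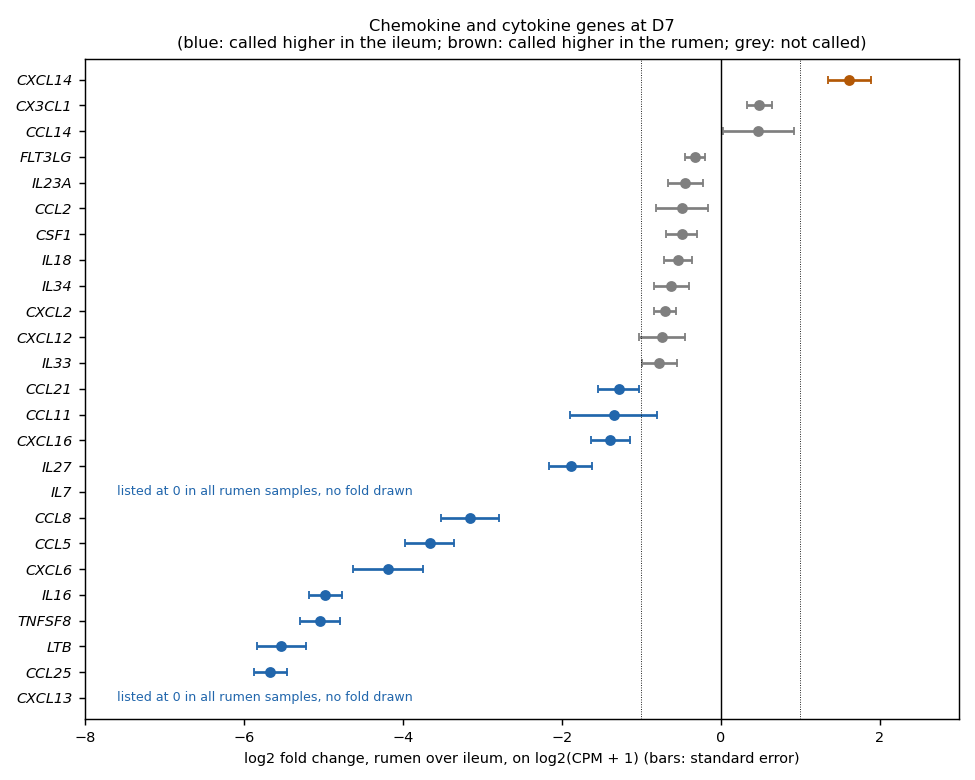
Log2 fold change, rumen over ileum, of 25 chemokine and cytokine genes at D7, with bars of 1 standard error and dotted lines at a 2-fold change. CXCL14 was called higher in the rumen (brown), 13 genes were called higher in the ileum (blue) and 11 were not called (grey), and no fold is drawn for IL7 and CXCL13, which were listed at 0 in all rumen samples.

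Extracellular matrix genes were higher in the rumen or not called, with SMOC2 as the exception. Of 31, 15 were higher in the rumen, 1 was higher in the ileum and 15 were not called, with a median log2 fold change of 0.92. With median-ratio scaling 23 were higher in the rumen. ECM1, a matrix protein of skin, was at 431, 746, 368, 622 and 629 CPM in the rumen and 27, 28, 26, 21 and 12 CPM in the ileum (4.57 ± 0.24, FDR = 6.38e-09). COL1A1 was at 8115, 6575, 12082, 7863 and 3688 CPM in the rumen and 1294, 1878, 1461, 1248 and 1488 CPM in the ileum (2.29 ± 0.26). COL1A2, the other chain of type I collagen, was at 6434, 4410, 10589, 6478 and 2644 CPM against 822, 1258, 1102, 842 and 948 CPM (2.49 ± 0.30). Basement membrane collagens were closer, with COL4A1 at 0.83 ± 0.26 and COL4A2 at 0.77 ± 0.25, and neither was called. SMOC2, a matrix protein of intestinal crypts, was at 2 to 6 CPM in the rumen, 20 to 33 CPM in the ileum and 132 to 173 CPM in the jejunum.

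The rumen samples differed among themselves in stroma and muscle. The summed CPM of the extracellular matrix genes was 36189, 24504, 49175, 30351 and 15586 in rumen animals 1 to 5 and 8256 to 11676 in the ileum. Animal 3 was the highest of the rumen samples for 21 of the 31 genes and animal 5 the lowest for 24. Animal 5 was also the highest for 12 of the 18 squamous genes, and animal 1 the lowest for 11.

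Smooth muscle genes summed to 17610, 8065, 14058, 6672 and 6466 CPM in rumen animals 1 to 5 and 1228 to 3134 CPM in the ileum. DES and FLNA made up most of these sums, at 10511 and 6854 CPM in rumen animal 1 and 3034 and 3131 CPM in rumen animal 5. The sums therefore do not stand for the group as a whole. Of the 7, 3 were higher in the rumen, 1 was higher in the ileum and 3 were not called (median log2 fold change 0.33). DES, the intermediate filament of muscle, was at 10511, 4228, 7742, 3502 and 3034 CPM in the rumen and 1268, 1205, 623, 189 and 769 CPM in the ileum (2.94 ± 0.50). FLNA, an actin cross-linker, and ITGA7, a laminin receptor of muscle, had log2 fold changes of 1.81 ± 0.29 and 1.78 ± 0.23. FOXS1, a transcription factor of pericytes, was at 1 to 10 CPM against 12 to 20 CPM. The summed muscle and matrix levels differed between the regions, as did the epithelial and immune groups, and their part in those differences was not tested.

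**Figure D5:**
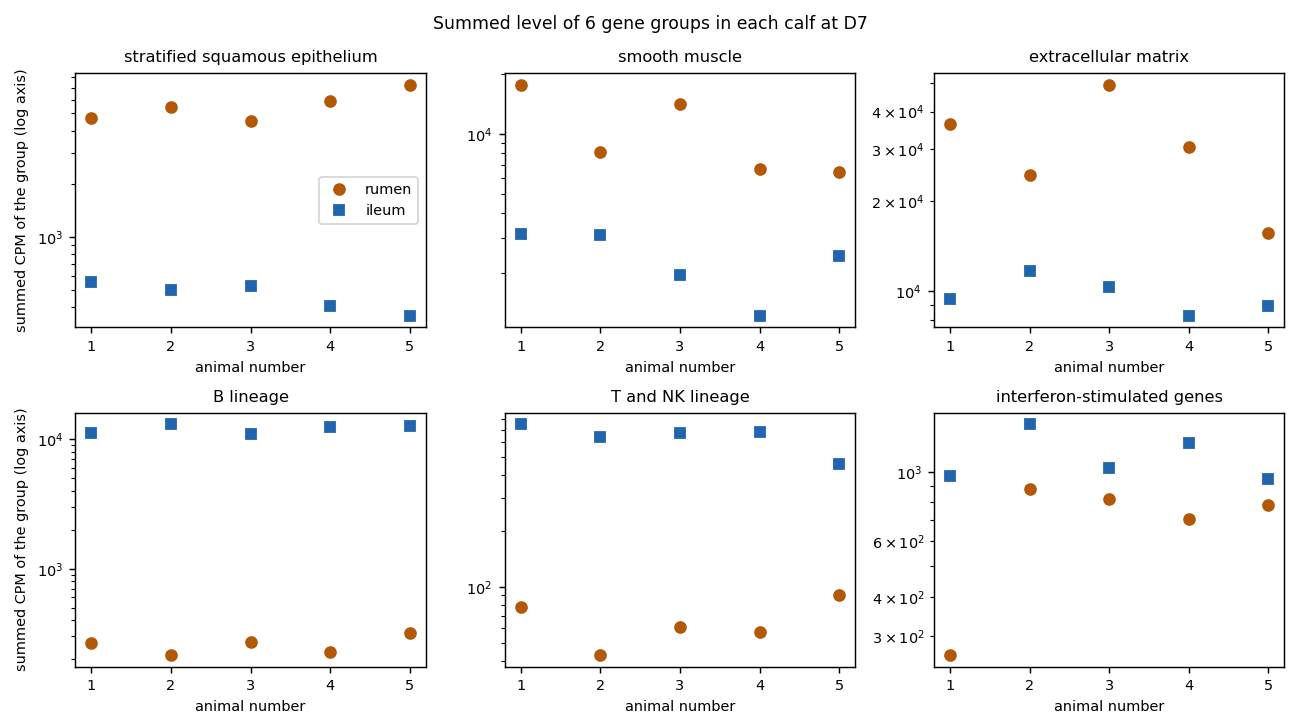
Summed CPM of 6 gene groups in each calf at D7, on log axes that differ between panels, for the rumen (circles) and the ileum (squares). The regions did not overlap in any of the 6 panels, and rumen animal 1 had the lowest sum of interferon-stimulated genes, 261 CPM. The squamous sums of the rumen came largely from GJA1 and AQP3, and the smooth muscle sums mostly from DES and FLNA.

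The regional difference was compared with that of other calves at D21, where 1970 genes (13.8%) were higher in the rumen and 4282 (30.1%) were higher in the ileum. Of the 2041 genes higher in the rumen at D7, 1657 were called at D21 too, which is 81.2% of the D7 genes and 84.1% of the D21 genes. In the ileum direction 3344 genes were called at both ages, 93.2% of those of D7 and 78.1% of those of D21. No gene called at D7 was called in the opposite direction at D21.

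Single genes lay in the same direction in the older calves. MPZL2 was at 239 to 407 CPM in the rumen and 3 to 6 CPM in the ileum at D21. CLDN1 was at 76 to 150 CPM against 4 to 7 CPM. DSP was at 4636 to 7545 CPM against 104 to 282 CPM. In the ileum direction, IGHM was at 1 to 17 CPM in the rumen and 3524 to 5415 CPM in the ileum, and CXCL13 was listed at 0 in all rumen samples against 114 to 225 CPM.

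The difference between the regional effects of D7 and D21 was tested as an interaction over 20 samples. Age and access to starter feed changed together between these groups. It was called for 8 genes, 4 of them (0.0281%) positive and 4 (0.0281%) negative. There were 5 with the calf as a block, 9 (0.0632%) with FDR alone, 16 without the filter, and 4 to 30 when 1 sample was left out, with 30 without rumen animal 3 of D21. None of the 8 had a symbol. Of the 1280 genes with a symbol, 0 were called by limma, while 177 had an unadjusted p below 0.05 (13.8%, against 13.2% of all tested genes). GJA1 had an interaction of -1.06 ± 0.25 on the log2 scale with an FDR of 0.13, and at D21 it was at 2184 to 2977 CPM in the rumen and 34 to 48 CPM in the ileum.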

How the data were processed

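RNA-Seq was measured in 5 rumen and 5 ileum samples of calves at D7. The authors sequenced polyA-selected libraries, aligned reads to UMD3.1 with TopHat2 2.0.10, counted them per Ensembl gene with HTSeq and divided by total mapped reads. The deposited value is a score, namely CPM rounded to whole numbers, for 21510 genes, and the files of both regions sum to between 974971 and 979334. Read depth per sample is not given in the files. RNA was extracted with Trizol according to the labels, while the study's methods name another kit.

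A gene was tested where its CPM exceeded 1, a listed value of 2 or more, in 50% or more of the 18 rumen or the 18 ileum samples. Of 14244, 1344 passed only through the ileum and 787 only through the rumen. All 1280 genes with a symbol passed, 1181 of them also in the rumen alone. Log2(CPM + 1) was tested with limma 3.58.1 (trend) in R 4.3.3, and errors are standard errors of that fit. A fit for D21 was added after the data were seen. The fit was also run on simulated data that started from the ileum means in both regions. That simulation does not bear on the scaling between the regions. Other steps used Python 3.11.15, numpy 2.4.6 and pandas 2.3.3. Alternatives were no filter, pseudocounts of 0.1 and 5, median-ratio scaling, the calf as a block, 1 fit over all ages, another filter, FDR alone and leaving out each sample.

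The animal numbers were taken to pair samples of 1 calf. Deviations from the group means of same-numbered D7 samples correlated at -0.031 to 0.120 across genes. Correlations this low do not by themselves show that same-numbered samples share a calf.

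The samples, gene groups and rules were chosen with earlier results of these data known. Genes were named by rule, namely the 3 largest differences per direction in each group among called genes without overlap, all tight junction and cytokine genes, the 10 largest per direction among all genes with a symbol, and 2 identifiers per direction without a symbol. Further genes illustrate group members and were chosen after their values were seen. Some genes that the rule names are not reported here. Identifiers were paired with symbols through a sheet of the study, and none of its values entered a result. As a check, its ileum values at D7 were multiplied by 0.9755 to 0.978 and rounded. They then equalled the deposited values for 97.3% to 99.9% of the 1280 genes, so the deposited CPM lay slightly below that of the sheet. Coordinates are not given, because no annotation of UMD3.1 was used here.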

Additional observations from a re-analysis of the deposited data

Results flagged for a closer look

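By Dixon's 95% limit for 5 samples, a single sample stood apart from the other 4 of its region in 16 of 180 sets tested. Chance marks about 1 in 20 sets where values are continuous. Whole numbers near 0 can pass the limit by 1 step, so the 16 cannot be set against that rate. Rumen animal 5 was the high sample for IL22RA1 (25 CPM), CLDN12 (20 CPM), CCL14 (28 CPM) and CXCL16 (59 CPM). It was also the only rumen sample above 0 for FCGBP (1 CPM), AGR2 (5 CPM), IL2RA (1 CPM) and CD2 (1 CPM), of which all but AGR2 differ by the smallest step of the files. Rumen animal 2 was listed at 0 CPM for TNFSF8 and IFITM2, and rumen animal 4 at 0 CPM for LY86, where the other 4 rumen samples were at 1 CPM. Rumen animal 1 was at 3 CPM for TIMD4, where the others were at 2 CPM. In the ileum, animal 1 was the high sample for IL22RA1 (88 CPM), CDHR2 (270 CPM) and CGN (223 CPM), and animal 2 the low sample for CTSL (22 CPM). Of the genes with a symbol, none was called for a difference between the regional effects of D7 and D21.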

How the results depend on the processing

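The D7 counts of 2041 and 3587 genes became 2124 and 3682 without the filter on low values, 2194 and 3803 with a pseudocount of 0.1, 1431 and 2634 with a pseudocount of 5, and 3576 and 6452 with FDR alone in place of FDR and fold. They were 2045 and 3591 with the calf as a replicate block, and leaving out each sample gave 1992 to 2111 and 3521 to 3670. Median-ratio scaling gave 2592 and 2915, so that the share of calls higher in the rumen went from 36.3% to 47.1%. Group medians were less stable than these counts. In alternatives that kept all samples, the median of 12 of the 17 groups moved by more than its spread between samples. Leaving out a sample moved 3 of them. Counts of calls moved as well in alternatives that kept all samples, for 11 of the 34 counts by group and direction. The medians and counts given above are those of the main fit. The count of 8 for the difference between ages became 16 without the filter and 5 with the calf as a block, and ranged from 4 to 30 when each sample was left out, with 30 without rumen animal 3 of D21, 16 without rumen animal 1 or 2 of D7, 4 without rumen animal 4 or ileum animal 4 of D7 or ileum animal 5 of D21 and 5 without ileum animal 2 of D7. No named gene reversed, and no gene-group member lost its call with the block. CD59, ESAM, CD34, IL7 and IL27 lost the call with a pseudocount of 5, which shrinks low values, and CD300LG and CDH19 with that pseudocount, in 1 fit over all ages and without some samples. Of 225 called group members, 19 lost the call in at least 1 of 17 alternatives. Besides those above they included CCL11 (in 10), PKP2 (in 5), RCC2 (in 4), COL6A3 (in 3), C1R, IGSF6 and CMPK2 (in 2 each) and CD200R1, TLR2, COL15A1 and COL5A1 (in 1 each). Median-ratio scaling called 1 enterocyte gene higher in the rumen and 1 desmosomal gene higher in the ileum. Depth per sample is not given in the files, and a difference below 1 CPM was not detectable.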

Other observations

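Endothelial genes were called in both directions. Of 14, 3 were higher in the rumen, 3 were higher in the ileum and 8 were not called, with 13 passing the filter in the rumen samples, and the summed CPM was 450 to 626 in the rumen and 340 to 441 in the ileum. Those higher in the rumen were ESAM (1.11 ± 0.21), an adhesion molecule of endothelial junctions, CD34 (1.08 ± 0.11), a sialomucin of small vessels, and CD300LG (1.01 ± 0.23), a receptor of capillaries, and with a pseudocount of 5 there were 0. Those higher in the ileum were ESM1 (-2.76 ± 0.33), which tip cells of growing vessels secrete, ICAM2 (-2.33 ± 0.21), a ligand for leukocyte integrins, and FLT4 (-1.36 ± 0.16), the receptor of lymphatic endothelium. CDH5, the cadherin of all endothelium, was at 30 to 43 CPM in the rumen and 26 to 34 CPM in the ileum and was not called. Of 6 nerve and glia genes, CDH19, a cadherin of Schwann cells, was called higher in the rumen (1.04 ± 0.27) and the other 5 were not called.

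Genes without a symbol held the largest differences. ENSBTAG00000004097 was at 9292, 7317, 5400, 7769 and 7683 CPM in the rumen, and ENSBTAG00000006806 was at 5322, 6316, 4453, 6413 and 8883 CPM, and both were listed at 0 in every ileum and jejunum sample of D7. In the other direction, ENSBTAG00000017357 was at 2798, 1372, 2429, 1410 and 773 CPM in the ileum and ENSBTAG00000005759 at 1276, 1435, 1095, 1450 and 1302 CPM, and both were listed at 0 in all 5 rumen samples.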
